A study of Mus musculus with 9 samples.

Results

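The genes described here are the receptor chains and kinases through which T cells sense interleukin (IL)-12, IL-23, IL-27 and IL-6. They are Il12rb1, Il12rb2, Il23r, Il27ra, Il6ra and Il6st, together with the Janus kinases Jak2 and Tyk2. They were taken by symbol from a table of 23415 entries, which lists them in capitals as IL12RB1, IL12RB2, IL23R, IL27RA, IL6RA, IL6ST, JAK2 and TYK2. All 8 were present and passed the filter on low values. The RNA came from CD4+ T cells of the inflamed colon. Naive CD4+ CD25- CD45RBhigh T cells from CD160 knockout mice or from wildtype littermates (control) were injected into Rag1-/- mice, which lack T and B cells of their own, and colitis followed. At the peak of disease 5000 CD4+ T cells per sample were sorted from the colon, giving 4 knockout libraries, called K1 to K4 by replicate number, and 5 control libraries, called C1 to C5. All recipients in both groups carried the Rag1 deletion. The labels give neither the ages of the animals, nor the deleted part of Cd160, nor whether libraries came from separate recipients. The p-values therefore weigh differences against the spread among libraries only, and that spread may be technical.

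IL-12 and IL-23 share the receptor chain IL-12Rβ1, the product of Il12rb1. IL-12 adds IL-12Rβ2 and acts mainly through STAT4 in interferon-γ producing Th1 cells, whereas IL-23 adds IL-23R and acts mainly through STAT3 in Th17 cells and in other colitogenic T cells. IL-6 binds IL-6Rα, the product of Il6ra, and signals through gp130, the product of Il6st, which IL-27 also uses beside IL-27Rα. TYK2 and JAK2 sit on these chains and phosphorylate the STAT factors. IL-6Rα is also made by macrophages, monocytes and neutrophils, and gp130 by most cell types.

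Values are TPM, the share of all transcripts that a gene makes up on a fixed scale, and are corrected for transcript length so that genes can be compared within a library. The sequencing depth behind them is unknown, and no interval or floor based on counts is given. C1 differed from the rest, with 7308 genes at 1 TPM or more against 11088 to 11711 in the other 8 libraries. Each result is therefore given with 9 libraries and with the 8 others. Cd160, the deleted gene, stood at 5.44 to 18.8 TPM in K1 to K4 and at 31.8 to 212.4 TPM in C1 to C5, without overlap. It did not pass the test over all genes (limma adjusted p = 0.572 with 9 libraries, 0.113 with 8). An entry for the reporter tdTomato was at 0 in each of K1 to K4 and at 2.52 to 8.78 TPM in C1 to C5, a difference that the labels do not account for and that goes with the genotype groups. Its source was not tested. A separate entry named EGFP_IRES_IL23R, by its name a reporter joined to Il23r, was listed at 0 in all 9 libraries. The 7 defining T cell markers, among them Cd3e, Cd4 and Trac, summed to 4193 to 5259 TPM in knockout libraries, 4975 to 6093 TPM in C2 to C5 and 1817 TPM in C1. Their mean on the log2(TPM + 1) scale was 9.21 ± 0.15 in knockout libraries and 9.48 ± 0.13 in C2 to C5 (SD, n = 4 and 4; exact permutation p = 0.0571). That is a difference of -0.27. In limma without C1, 0 of the 7 markers had a positive difference, beside 47.5% of all genes. At an unadjusted limma p under 0.05 there were 3 of 7, beside 12.8%, and the groups did not overlap for 1 of 7, beside 7.02%. The 4 B cell markers summed to 2.43 to 12.9 TPM in knockout libraries, 1.63 to 8.06 TPM in C2 to C5 and 0.84 TPM in C1, most of it Cd79b, and Ms4a1 was listed at 0 throughout.

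The 8 genes spanned a wide range of levels. By median TPM over 9 libraries Il27ra was highest at 116.5, followed by Il12rb1 at 88.3, Il12rb2 at 76.7, Tyk2 at 39.9, Jak2 at 11.3, Il6ra at 7.77, Il6st at 6.48 and Il23r at 2.15. Neighbours in this order were compared within libraries on the log2(TPM + 1) scale with an exact two-sided sign-flip permutation test, adjusted over the 7 pairs. Il27ra exceeded Il12rb1 in 9 of 9 libraries (mean log2 difference 0.44 ± 0.29, SD; adjusted exact p = 0.0137), Tyk2 exceeded Jak2 in 9 of 9 (1.69 ± 0.25; adjusted exact p = 0.0137), and Il6st exceeded Il23r in 8 of 9 (1.2 ± 0.88; adjusted exact p = 0.0182). The order of Il12rb1 and Il12rb2, of Jak2 and Il6ra, and of Il6ra and Il6st was not resolved beyond the spread, with adjusted exact p values of 0.126, 0.0957 and 0.242. For the last pair the comparison within libraries ran against the order of the medians, since Il6ra was higher than Il6st in 2 of 9 libraries (mean log2 difference -0.28 ± 0.68, SD). Il12rb2 and Tyk2 were not resolved with 9 libraries (0.66 ± 1.13; adjusted exact p = 0.146), but were in the 8 others, where Il12rb2 was higher in 8 of 8 (1.00 ± 0.49; adjusted exact p = 0.0182). C1 had its own order, with Tyk2 first at 4.70 TPM and Il12rb2 next to last at 0.32 TPM.

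**Figure D1:**
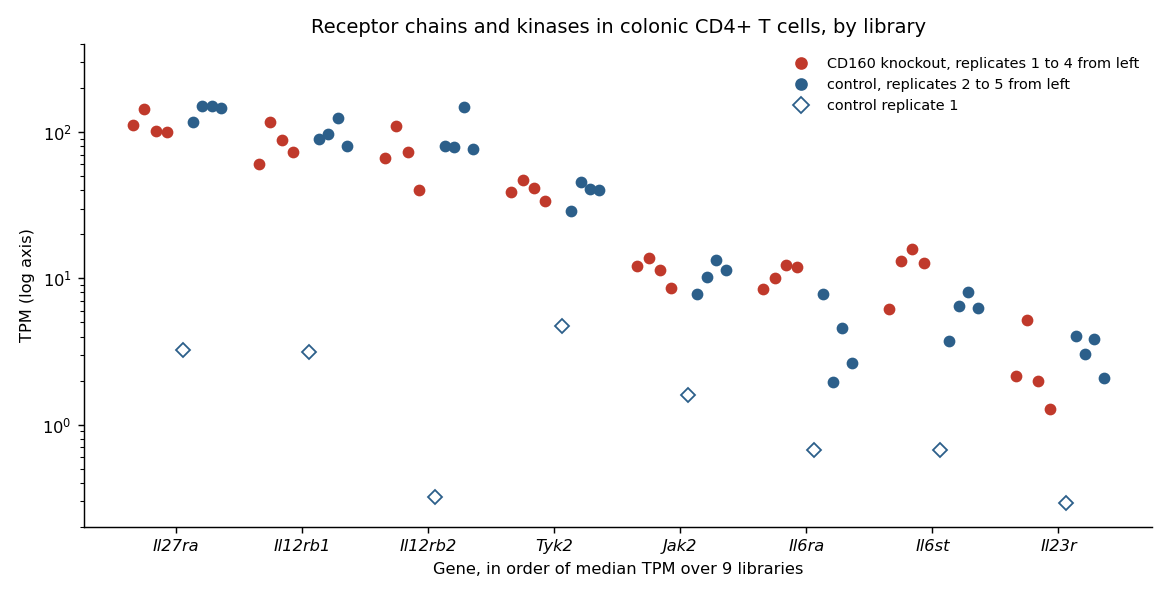
TPM on a log axis (vertical) of each gene (horizontal, in order of median TPM) in 4 CD160 knockout libraries (red), C2 to C5 (blue) and C1 (open diamonds). Each point is 1 library. Outside C1, Il27ra, Il12rb1 and Il12rb2 lie between 39.95 and 151.5 TPM and Il23r between 1.27 and 5.16 TPM. The 4 knockout libraries lie above every control library for Il6ra.

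No gene of the group passed the threshold for a difference between genotypes unless libraries were weighted, as given with Il6ra. In limma on log2(TPM + 1), with Benjamini-Hochberg adjustment over all tested genes, 0 of 8 had an adjusted p under 0.05 with 9 libraries (adjusted p 0.595 to 0.958) and 0 of 8 with 8 libraries (0.170 to 0.921). Over all genes, 2 of 11495 (0.0174%) and 3 of 11457 (0.0262%) were called. At an unadjusted p under 0.05 there were 2 of 8, Il6ra and Il6st, in each fit, where all genes gave 6.39% and 12.8% in either direction, 5.78% and 8.44% higher and 0.618% and 4.41% lower in knockout libraries. The knockout and control values did not overlap for 1 of 8, Il6ra, in each fit, beside 4.93% and 7.02% of all genes in either direction, 3.88% and 4.01% higher and 1.05% and 3.01% lower. Exact permutation of each gene on its own, adjusted over all genes, gave 0 of 8 and 0 of all genes. Its p could not fall below 0.00794 with 9 libraries or 0.0286 with 8, so hardly any gene could pass adjustment. That count therefore says nothing of the 8 genes. With 9 libraries all 8 differences were positive, as were 86.7% of all genes, and their median was 0.70 beside 0.46 for all genes. Without C1, 4 were positive and 4 negative, beside 47.5% positive over all genes, and the medians were -0.081 and -0.014.

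**Figure D2:**
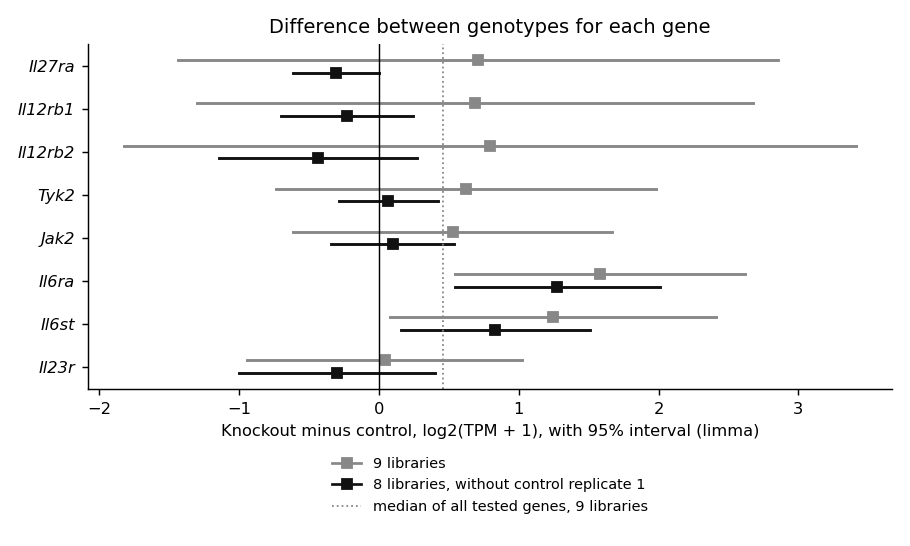
Knockout minus control difference on the log2(TPM + 1) scale (horizontal) for each gene (vertical), with limma's 95% interval, from 9 libraries (grey) and from 8 libraries without C1 (black). Dotted line, median of all tested genes with 9 libraries; the intervals of Il6ra and Il6st lie above 0 in both fits before adjustment, and those of the other 6 genes span 0.

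The IL-6 receptor chains had the largest differences of the group. Il6ra, on chromosome 3 (89869324 to 89913196 in GRCm38), was at 8.39, 10.04, 12.4 and 12.0 TPM in K1 to K4 and at 0.67, 7.77, 1.95, 4.59 and 2.63 TPM in C1 to C5. All 4 knockout libraries lay above all 5 controls, with K1 and C2 close together. The mean was 10.7 ± 1.86 TPM over K1 to K4 and 4.24 ± 2.61 TPM over C2 to C5 (SD, n = 4 each), a ratio of 2.53. With 9 libraries Il6ra differed by 1.58 ± 0.47 on the log2 scale (standard error; limma adjusted p = 0.595), and without C1 by 1.28 ± 0.32 (limma adjusted p = 0.170). With libraries weighted by quality, Il6ra passed the threshold (limma adjusted p = 0.0189 with 9 libraries and 0.0408 with 8), a setting under which 521 and 302 genes were called in all. Il6ra lies on the same chromosome as Cd160, 6.89 Mb away, and the part of that linkage in the difference was not tested.

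Il6st (chromosome 13, 112464070 to 112506860), which encodes the signalling chain gp130, stood at 6.12, 13.1, 15.9 and 12.7 TPM in K1 to K4. In C1 to C5 it stood at 0.67, 3.75, 6.48, 8.01 and 6.23 TPM. K1 fell within the control range, and the other 3 knockout libraries lay above it. The mean was 12.0 ± 4.14 TPM over K1 to K4 and 6.12 ± 1.76 TPM over C2 to C5 (SD, n = 4 each). Il6st differed by 1.24 ± 0.53 with 9 libraries (standard error; limma adjusted p = 0.735) and by 0.83 ± 0.30 without C1 (limma adjusted p = 0.290). Relative to gp130, the Il6ra level ranged from 76.6% to 137.1% in knockout libraries and from 30.1% to 207.2% in C2 to C5, so that the ratio of these transcripts overlapped between the groups.

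Il6ra moved with macrophage markers from library to library. The mean log2(TPM + 1) of 13 macrophage markers, among them Csf1r, C1qa and Adgre1, was 7.19, 7.72, 8.46 and 8.50 in K1 to K4 and 4.41, 7.49, 6.17, 7.13 and 5.83 in C1 to C5. Summed, these markers came to 9240 to 16560 TPM in knockout libraries and 2593 to 10370 TPM in C2 to C5. The difference of the means was 1.76 (exact two-sided permutation p = 0.0397) with 9 libraries and 1.31 (exact p = 0.0571) without C1, where 13 of 13 markers had positive differences, 0 were called and none was at 0 throughout. Over all genes 47.5% of differences were positive without C1. Of the 13 markers, 10 had an unadjusted limma p under 0.05 without C1, beside 12.8% of all genes. The groups did not overlap for 0 of 13, beside 7.02% of all genes. As markers of the same cell type they are not independent, so these counts are not 13 separate results. Leaving out 1 library at a time, the p of the 9-library difference stayed under 0.05 without K1 or C2 (exact p = 0.0357 and 0.0286). It was 0.0536 to 0.0714 without any of the other 7. Over the 8 libraries Il6ra followed this mean with Pearson's r = 0.943 (exact permutation p = 0.000446) and Spearman's rho = 0.929 (exact permutation p = 0.00223). Adjusted over the 8 genes compared with the marker mean, the exact p values were 0.00357 and 0.0178. Without the 2 libraries farthest from the median of that mean, r was 0.853. Il6st gave r = 0.636 and rho = 0.548 (adjusted exact p = 0.235 and 0.456). Il27ra ran the other way, with r = -0.758 and rho = -0.81 (adjusted exact p = 0.144 and 0.0872; r = -0.665 without the 2 farthest). These correlations with the marker mean pool both genotypes without centring each on its mean. They therefore include the difference between the groups, and the relation within each genotype was not tested. With the marker mean as a covariate the log2 difference of Il6ra was 0.41 with 9 libraries and 0.43 with 8, and that of Il6st 0.20 and 0.62, whereas that of Il27ra was -1.44 and -0.092. The covariate with 9 libraries also follows C1, the lowest in the markers. In bulk RNA, more cells of a type and more RNA per cell cannot be told apart, and the part of macrophages in these differences was not tested beyond these values. Neutrophil markers, of cells that also make IL-6Rα, had a mean of 2.53 ± 0.995 in knockout libraries and 2.09 ± 0.794 in C2 to C5 (SD, n = 4 and 4; difference 0.44, exact permutation p = 0.514). Their summed level was 42.9 to 160.4 TPM, 27.8 to 83.9 TPM and, in C1, 326.7 TPM. Markers of stroma and endothelium and of epithelium, which also make gp130, averaged 3.46 ± 0.59 and 3.18 ± 0.12 in knockout libraries and 2.88 ± 0.48 and 2.73 ± 0.46 in C2 to C5 (exact permutation p = 0.143 for each). Dendritic cell markers averaged 2.08 ± 0.13 and 1.74 ± 0.50 in these groups (exact permutation p = 0.343). Those of CD8 T cells averaged 2.80 ± 0.89 and 3.43 ± 1.07 (exact permutation p = 0.4). Those of NK and innate lymphoid cells averaged 1.77 ± 0.16 and 2.185 ± 0.63 (exact permutation p = 0.257).

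**Figure D3:**
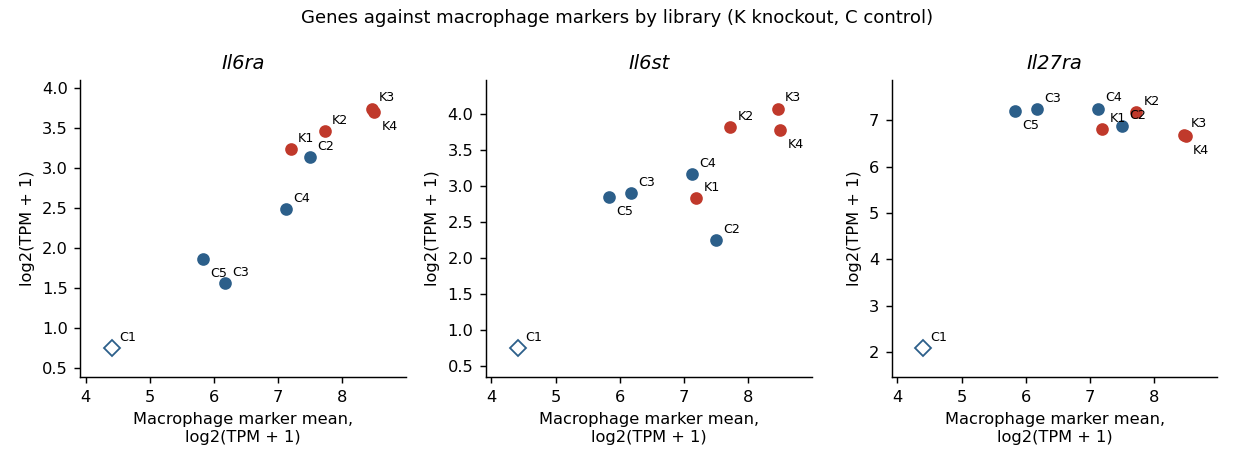
Il6ra, Il6st and Il27ra (vertical, log2(TPM + 1)) against the mean log2(TPM + 1) of 13 macrophage markers (horizontal) in each library; K1 to K4 are knockout and C1 to C5 control replicates, with C1 as an open diamond. Il6ra rises with the markers across both groups, from C1 at the left to K3 and K4 at the right.

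The genes whose pattern over the 8 libraries was nearest to that of Il6ra were Ciita, Tnfrsf21 and Btk. Nearness was the root mean square difference of log2(TPM + 1) after centring each gene, among 10955 genes, and came to 0.11, 0.12 and 0.14, whereas Il6ra itself had an SD of 0.84 over these libraries. Ciita is the master regulator of MHC class II, Tnfrsf21 the death receptor DR6 and Btk a kinase of B cells and myeloid cells. Ciita stood at 25.5 to 34.7 TPM in knockout libraries and 8.10 to 21.95 TPM in C2 to C5, and Btk at 9.26 to 16.1 and 2.02 to 8.72 TPM. Tnfrsf21 stood at 7.34 to 10.8 TPM in knockout libraries and 1.53 to 7.46 TPM in C2 to C5, with overlap.

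The IL-12 and IL-23 receptor chains showed no resolved difference between genotypes. Il12rb1 (chromosome 8, 70808360 to 70823542), the shared chain, stood at 60.9, 117.7, 88.3 and 73.3 TPM in K1 to K4 and at 3.12, 90.3, 97.0, 124.9 and 80.5 TPM in C1 to C5. Outside C1 the groups overlapped over most of their range. The log2 difference was 0.69 with a 95% interval from -1.31 to 2.68 with 9 libraries, and -0.23 with an interval from -0.70 to 0.24 with 8. Beside this, the mean of the 7 T cell markers differed by -0.27 with the 8 libraries. The part of that shift in the differences of the receptor chains was not tested.

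Il12rb2 (chromosome 6, 67285986 to 67376293), the IL-12 specific chain and a mark of Th1 cells, stood at 66.7, 109.2, 73.3 and 39.95 TPM in knockout libraries. In C1 to C5 it stood at 0.32, 80.0, 79.5, 148.3 and 76.7 TPM. C4 was the highest and, outside C1, K4 the lowest, while the remaining 6 libraries lay between 66.7 and 109.2 TPM. The log2 difference was 0.79 (95% interval -1.82 to 3.41) with 9 libraries and -0.43 (-1.14 to 0.27) with 8, with limma adjusted p values of 0.748 and 0.628.

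Il23r (chromosome 6, 67422932 to 67491855), the IL-23 specific chain and the receptor the study is about, stood at 2.15, 5.16, 2.00 and 1.27 TPM in K1 to K4. In C1 to C5 it stood at 0.29, 4.01, 3.02, 3.86 and 2.09 TPM. K2 was the highest of all libraries, and the groups overlapped. Its log2 difference was 0.040 (95% interval -0.94 to 1.02) with 9 libraries, which turned to -0.23 with median-of-ratios scaling and -0.31 with quantile normalization, and -0.30 (-1.0 to 0.40) with 8, so that a change of -1.0 on this scale lay at the edge of the interval. At such low TPM the log2(TPM + 1) scale understates changes.

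Within libraries the IL-12 specific chain was far above the IL-23 specific one. Il12rb2 was at 54.5% to 109.6% of the Il12rb1 level in knockout libraries and at 82.0% to 118.7% in C2 to C5. Il23r was at 1.73% to 4.38% and 2.60% to 4.44% of Il12rb1. The ratio of Il23r to Il12rb2 was 3.46 ± 0.87% (SD, n = 4) in knockout libraries and 3.54 ± 1.12% (SD, n = 4) in C2 to C5. These ratios overlapped between genotypes. In C1, where Il12rb2 was at 0.32 TPM and Il23r at 0.29 TPM, Il23r was at 90.6% of Il12rb2 and at 9.30% of Il12rb1. These are transcript levels over the whole sort, so a low level in all cells and a higher level in few cells cannot be told apart.

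The 3 chains had positive correlations across libraries that did not pass adjustment. Over the 8 libraries, Il12rb2 and Il23r had r = 0.821 and rho = 0.857 (exact permutation p = 0.0112 and 0.0107), and Il12rb1 and Il12rb2 r = 0.807 and rho = 0.929 (exact permutation p = 0.0165 and 0.00223). Il12rb1 and Il23r had r = 0.767 and rho = 0.714 (exact permutation p = 0.0277 and 0.0576). Without the 2 libraries farthest from the median of the first gene of each pair, the r values were 0.862, 0.869 and 0.898. After centring each genotype on its mean they were 0.796, 0.774 and 0.735. None passed adjustment over the 28 pairs of the 8 genes, where the lowest adjusted exact p was 0.116 for Pearson's r and 0.0624 for Spearman's rho. The values share the TPM total of each library. Jak2 and Tyk2 had r = 0.807 (rho = 0.595, exact permutation p = 0.0158 and 0.132, adjusted 0.116 and 0.384), and r = 0.802 after centring each genotype. This r fell to 0.0437 without the 2 libraries farthest from the median of Jak2, and so rests on those.

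**Figure D4:**
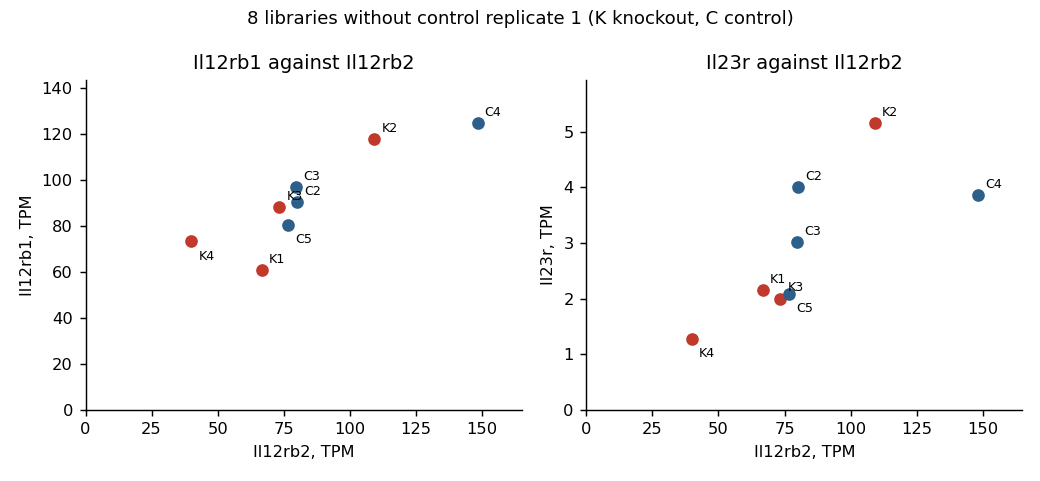
TPM of Il12rb1 (left) and Il23r (right) against TPM of Il12rb2 in the 8 libraries without C1; K1 to K4 are knockout (red) and C2 to C5 control (blue) replicates. K4 is lowest and C4 highest in Il12rb2, K2 and C4 are the highest in Il12rb1, and red and blue points are intermixed.

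Il12rb2 and Il23r lie next to each other on chromosome 6, both on the minus strand, 46.6 kb apart with 3 gene models of the Gm series between them. Their upstream sequences are shown with those of the IL-6 receptor chains because the first pair had the highest r of all pairs and the second pair had the largest differences. RefSeq (GRCm38.p6) gave upstream windows for 6 of the 8 genes. Il12rb1 and Il27ra were not among them. Each line runs 5′ to 3′ on the gene's strand and ends just before the annotated gene, at chr6:67376294-67376438 for Il12rb2, chr6:67491856-67492105 for Il23r, chr3:89913197-89913446 for Il6ra and chr13:112463820-112464069 for Il6st (plus strand; the others minus). Capitals mark a STAT-type match, TTCNNNGAA.
Il12rb2: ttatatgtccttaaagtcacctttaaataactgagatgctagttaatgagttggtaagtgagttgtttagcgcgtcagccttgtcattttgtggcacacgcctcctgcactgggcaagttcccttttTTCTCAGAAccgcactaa
Il23r: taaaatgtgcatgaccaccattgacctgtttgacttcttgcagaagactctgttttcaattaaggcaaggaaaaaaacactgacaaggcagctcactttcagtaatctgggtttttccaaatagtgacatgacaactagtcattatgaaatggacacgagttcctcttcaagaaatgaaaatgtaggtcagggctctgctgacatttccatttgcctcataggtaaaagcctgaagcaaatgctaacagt
Il6ra: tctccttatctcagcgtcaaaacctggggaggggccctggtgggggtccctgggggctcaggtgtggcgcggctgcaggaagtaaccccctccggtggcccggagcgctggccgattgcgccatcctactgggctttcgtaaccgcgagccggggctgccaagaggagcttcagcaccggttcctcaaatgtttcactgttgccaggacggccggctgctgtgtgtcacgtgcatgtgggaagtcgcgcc
Il6st: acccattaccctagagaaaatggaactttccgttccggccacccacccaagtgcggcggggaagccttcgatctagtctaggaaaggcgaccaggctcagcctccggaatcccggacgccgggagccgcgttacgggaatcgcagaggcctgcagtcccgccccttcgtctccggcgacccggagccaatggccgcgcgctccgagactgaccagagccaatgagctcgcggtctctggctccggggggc

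The windows of Il12rb2 and Il23r had a GC content of 42.8% and 39.6%, below the median of 52.4% over all windows, whereas those of Il6ra and Il6st had 65.2% and 66.0%. Il12rb2 held 1 match to TTCNNNGAA, a palindrome to which many STAT factors bind, in the 145 bases shown. In windows of that length 4.24% of 32851 promoters hold one, and 7.02% in 250 bases. The other 5 windows held none. No match was found in any of the 6 to the AP-1 sequence TGANTCA (6.75% of all promoters), to the T-box sequence AGGTGTGA (1.12%) or to the ETS sequence ACAGGAAGT (0.794%), searched on both strands. These shares are for windows of 250 bases, whereas the windows of Il12rb2 and Tyk2 held only 145 and 132 bases. Absence of a match says only that these letters are not in the window.

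Genes nearest in pattern to the IL-12 and IL-23 receptor chains over the 8 libraries were found in the same way. For Il23r they were Ggt1, Mipol1 and Stard6, at 0.17, 0.20 and 0.21, beside an SD of 0.48 for Il23r. For Il12rb1 they were Axin2, Ahnak and Tctn1, at 0.098, 0.10 and 0.11, beside an SD of 0.34. For Il12rb2 they were WBSCR16, Dusp5 and St8sia1, at 0.16, 0.16 and 0.21, beside an SD of 0.54. Ggt1 is a gamma-glutamyl transferase, Axin2 a feedback inhibitor of Wnt signalling and Dusp5 a phosphatase that acts on ERK. Ahnak departed from Il12rb1 in C1, where it stood at 232.8 TPM against 44.1 to 101.1 TPM in the other 8 libraries.

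Il27ra (chromosome 8, 84030286 to 84042600), the IL-27 specific chain, was the most abundant receptor transcript of the group. It stood at 111.4, 143.9, 102.1 and 100.3 TPM in K1 to K4 and at 3.22, 116.5, 150.4, 151.5 and 145.4 TPM in C1 to C5. K1, K3 and K4 lay below C2 to C5, and K2 lay within them. The log2 difference was 0.71 (95% interval -1.44 to 2.85; limma adjusted p = 0.745) with 9 libraries and -0.31 (-0.61 to 0.0026; 0.391) with 8. Without C1 this was the narrowest interval of the 8 genes. The mean of the T cell markers differed by -0.27 in the same libraries. Relative to Il6st, its partner chain, Il27ra was at 642 to 1820% in knockout libraries and at 1891 to 3107% in C2 to C5, without overlap, and at 480.6% in C1, below every other library. Its nearest values outside C1, 1820 and 1891%, lay close together, and the other ratios given here overlapped between the genotypes outside C1. That ratio carries the Il6st and Il27ra values given above and was not tested.

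The kinases, which pair on these receptors, overlapped between the genotypes. Tyk2 (chromosome 9, 21104068 to 21131393) stood at 38.7, 46.8, 41.7 and 33.9 TPM in knockout libraries and at 4.70, 28.7, 45.3, 40.7 and 39.9 TPM in C1 to C5. Jak2 (chromosome 19, 29251803 to 29313095) stood at 12.1, 13.8, 11.3 and 8.55 TPM in knockout libraries and at 1.59, 7.75, 10.2, 13.3 and 11.45 TPM in C1 to C5. C2 was the lowest of the 8 other libraries for each kinase, and the groups overlapped. Without C1 the log2 differences were 0.067 (95% interval -0.29 to 0.42) for Tyk2 and 0.098 (-0.34 to 0.54) for Jak2, and with it 0.62 (-0.74 to 1.98) and 0.53 (-0.61 to 1.67). Jak2 was at 25.3% to 31.1% of Tyk2 in knockout libraries, 22.4% to 32.6% in C2 to C5 and 33.8% in C1. The Jak2 to Tyk2 ratio thus had a smaller SD relative to its mean than the receptor ratios, and C1 lay close to the rest.

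The 8 genes were not equally low in C1. Against the mean of C2 to C5 on the log2(TPM + 1) scale, this library had a median change of -2.06 over all 11495 tested genes. Il12rb2 had a change of -6.14, Il27ra -5.06 and Il12rb1 -4.57, and 0.0435%, 0.400% and 1.52% of all genes had a larger drop. Tyk2, Jak2, Il6st, Il23r and Il6ra had -2.78, -2.15, -2.05, -1.69 and -1.52, and 29.8% to 65.1% of genes dropped further. In TPM the other controls averaged 300.4 times this library for Il12rb2, 43.8 times for Il27ra and 31.5 times for Il12rb1, but 8.22 times for Tyk2 and 11.2 times for Il23r. For genes at a few TPM the scale leaves little room for a larger drop. Without that library, the spread within groups was 0.52 for Il12rb2 and Il6ra, 0.49 for Il23r and 0.47 for Il6st on the log2 scale, each wider than in 85.2% to 87.7% of genes, and 0.21 for Il27ra, close to the median gene at 0.25.

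A list of 52 further genes of the same and related pathways was examined by role, and 44 passed the filter on low values. None was called in limma with 9 or with 8 libraries (0 of 44 each). With libraries weighted by quality, 5 of the 17 pathway genes named here passed the threshold with 9 libraries. They were Hlx, Lifr, Socs3, Il11ra1 and Ebi3 (limma adjusted p = 0.0189, 0.0308, 0.0311, 0.0398 and 0.0431). Hlx and Socs3 also passed with 8 (limma adjusted p = 0.0408 and 0.0434). Most of the 17 were picked by smallest p in these same data, and the other pathway genes were not examined under weights. Over all genes, 521 of 11495 and 302 of 11457 were called under weights. Without weights, 42 of 44 differences were positive with 9 libraries, beside 86.7% of all genes. Their median was 0.64, beside 0.46 over all genes. Without C1, 24 of 44 differences were positive with a median of 0.060, beside 47.5% and -0.014 over all genes, and 9 had an unadjusted p under 0.05, beside 12.8%. The groups did not overlap for 5 of 44, beside 7.02% of all genes.

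Of the ligand subunits 4 of 5 tested had positive differences without C1 (median 0.86), and Il12a, Il23a, Il6, Il11 and Lif did not pass the filter. The p19 subunit gene Il23a was listed between 0 and 0.28 TPM, and Il6 between 0 and 1.38 TPM. The IL-27 subunits Ebi3 and Il27, products mainly of antigen-presenting cells, stood at 48.5 ± 13.6 and 5.22 ± 2.68 TPM in knockout libraries and at 27.8 ± 13.7 and 2.33 ± 1.76 TPM in C2 to C5 (SD, n = 4 and 4). Their log2 differences were 0.86 and 0.97 without C1 and 1.16 and 1.16 with it. With the macrophage marker covariate that of Ebi3 was -0.16 without C1 and -0.098 with it, and that of Il27 was 0.22 and 0.30.

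Among the other receptor chains listed, not all of which belong to this family, 3 of 3 tested differences were positive without C1 (median 0.96). Lifr, the LIF receptor, stood at 4.08, 8.61, 15.0 and 10.1 TPM in K1 to K4 and at 1.95 to 4.65 TPM in the controls. Il11ra1, the IL-11 receptor, stood at 12.46 to 27.6 TPM and did not overlap with the 2.83 to 12.35 TPM of the controls. Their log2 differences without C1 were 1.18 and 0.96, with limma adjusted p values of 0.217 and 0.232, and 0.23 and 0.20 with the macrophage marker covariate. Osmr, Cntfr and Il31ra did not pass the filter.

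Of the STAT factors listed 3 of 4 had positive differences without C1 (median 0.15), as had 1 of 2 further Janus kinases (median 0.075). Stat3, the main STAT of IL-6 and IL-23, stood at 111.5 ± 10.6 TPM in knockout libraries and 97.5 ± 19.6 TPM in C2 to C5, and Stat4, that of IL-12, at 85.7 ± 11.6 and 95.5 ± 12.5 TPM (SD, n = 4 and 4). Their log2 differences were 0.21 and -0.16 without C1 and 1.02 and 0.52 with it. Stat5a did not overlap between genotypes in either fit, with a difference of 0.35 with 8 libraries (limma adjusted p = 0.329). Its lowest knockout value, 22.8 TPM, was close to its highest control value, 22.4 TPM. Jak1 and Jak3, kinases of gp130 and of the common gamma chain, had differences of 0.22 and -0.067 with 8 libraries. With the macrophage marker covariate and 8 libraries, Stat3, Stat4, Stat5a, Jak1 and Jak3 had 0.54, 0.066, 0.59, 0.83 and 0.30. With that covariate and 9 libraries they had -0.60, -0.87, -0.24, -0.35 and -1.0.

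Of the feedback genes 5 of 10 had positive differences without C1 (median 0.079), and of the shedding proteases 2 of 2 (median 0.33). Socs3, the inhibitor that binds gp130, stood at 171.3, 137.1, 159.5 and 208.8 TPM in knockout libraries and at 1.55, 115.5, 60.5, 113.2 and 76.7 TPM in C1 to C5. All 4 knockout libraries lay above all controls. Its log2 difference was 0.91 with 8 libraries (limma adjusted p = 0.154) and 1.94 with 9, and Socs1 had 0.60 and 1.27. With the macrophage marker covariate they were 0.44 and 0.71 with 8 libraries, and -0.63 and -0.16 with 9. Adam17, the protease that sheds IL-6Rα from the cell surface, stood at 34.5 to 41.6 TPM in knockout libraries and 21.4 to 29.9 TPM in C2 to C5, without overlap, and had a difference of 0.49 (limma adjusted p = 0.172). With the covariate it was 0.73 in 8 libraries and -0.22 in 9. Adam10 had 0.17.

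In the IL-12 list 2 of 5 differences were positive with 8 libraries (median -0.10), and Hlx, a homeobox factor of Th1 cells, had the largest, at 2.72 to 5.76 TPM in knockout libraries and 0.61 to 1.56 TPM in C2 to C5 (log2 difference 1.30, limma adjusted p = 0.114). The IL-18 receptor chain Il18rap had 0.058. In the list of IL-23 and IL-6 targets 4 of 13 were positive (median -0.12), 0 had an unadjusted p under 0.05, and Rora and Il1r1 had -0.050 and 0.14. With 9 libraries the medians of the lists were 0.72 and 0.23. With the macrophage marker covariate the difference of Hlx was 0.86 with 8 libraries and 0.88 with 9. Those of Il18rap, Rora and Il1r1 were then 0.40, 0.34 and 0.73 with 8 libraries, and -0.57, -0.69 and 0.062 with 9.

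**Figure D5:**
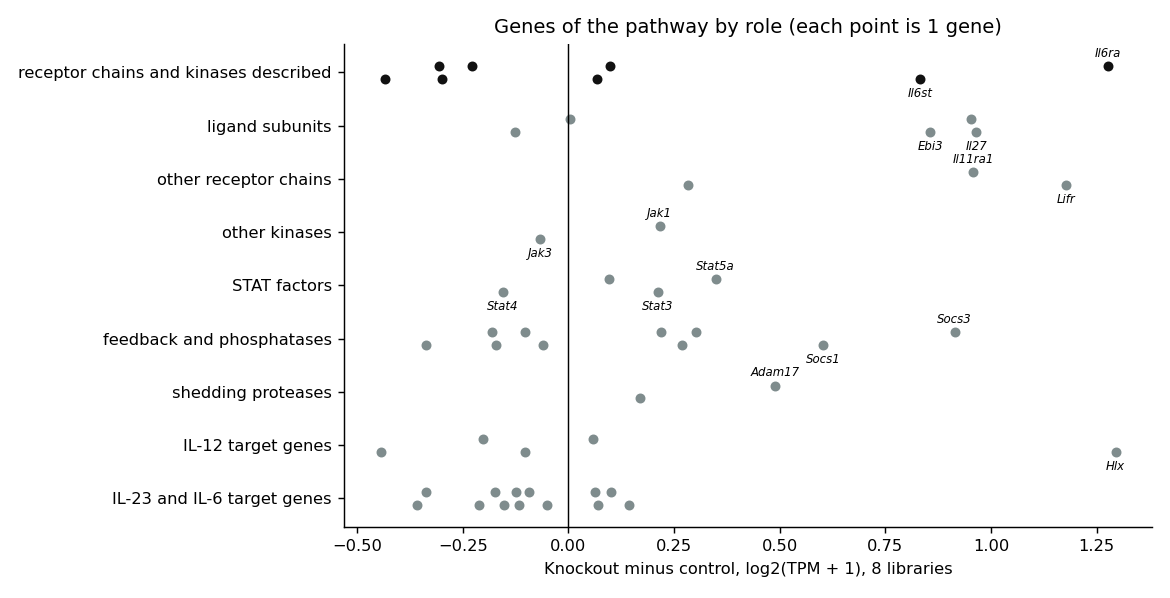
Knockout minus control difference on the log2(TPM + 1) scale (horizontal) in the 8 libraries without C1, for the 8 genes described (black) and the 44 tested pathway genes (grey) by role (vertical). Each point is 1 gene; Il6ra, Hlx and Lifr lie farthest to the right, and the IL-23 and IL-6 target genes lie between -0.36 and 0.14.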

How the data were processed

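RNA of 9 libraries was measured, 4 from CD160 knockout and 5 from control cells, grouped by their titles. Libraries were made by a modified SMART-Seq2 protocol and read in paired-end mode with 38 cycles per read, per the labels' protocols. The deposited values are TPM made by the authors. RSEM 1.2.31, Bowtie2 2.2.9 and Trimmomatic 0.32 appear in the submitters' processing notes, with build GRCm38 and no settings. TPM keeps no depth, so depth and counting error are unknown.

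Genes reaching 1 TPM in 4 or more libraries were tested with limma 3.58.1 in R 4.3.3 (eBayes with trend) on log2(TPM + 1), adjusted by Benjamini-Hochberg over all tested genes at 0.05, with 9 libraries (11495 genes) and without C1, control replicate 1 (11457 genes). The fit was tested on simulated data. Exact permutation tests between the groups were two-sided over all assignments of the labels, and could reach 0.00794 with 9 and 0.0286 with 8. Those of correlations instead permuted the values over the 8 libraries. Those of the order of levels flipped signs within libraries and could reach 0.00391 with 9. Positions and upstream sequences came from RefSeq (GRCm38.p6). Figures were drawn with matplotlib 3.10.9.

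The members, lists and tests were chosen with earlier results of these data known. Named by rule were the 8 genes, Stat3, Stat4, at most 2 genes of each role by smallest unadjusted p with 9 libraries, and the 3 genes nearest in pattern to each of Il23r, Il12rb1, Il12rb2 and Il6ra, leaving out gene models and receptor segments. Genes that failed the filter, the T cell and macrophage markers given as examples, Cd160 and the reporter entries were named beside these. Some genes of the pathway list are not reported here. Alternatives were pseudocounts of 0.1 and 5, no filter or 5 TPM, quantile and median-of-ratios scaling, robust variances, library weights, a macrophage covariate, leaving out each library, an exact test for every gene, and a replicate block.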

Additional observations from a re-analysis of the deposited data

Results flagged for a closer look

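Il12rb2 stood at 148.3 TPM in C4 (control replicate 4), far above C2, C3 and C5, which lay within 76.7 to 80.0 TPM. Il27ra stood at 3.22 TPM in C1, far below the other 4 controls at 116.5 to 151.5 TPM. In each case the library's gap to its nearest neighbour took more of the group's range than Dixon's 95% limit allows. Of 24 groups examined (8 genes in the knockout libraries, in all controls and in C2 to C5), these 2 were marked, and chance marks about 5% of groups.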

How the results depend on the processing

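The counts of the 8 genes called stayed at 0 under every alternative except library quality weights. Of the 965 alternative values of single genes, 893 kept their direction and side of the threshold. The exact test could hardly call any gene after adjustment, so its count of 0 was to be foreseen. With library quality weights 1 of the 8, Il6ra, was called with 9 and with 8 libraries. Of the 17 named pathway genes, Hlx and Socs3 also passed, as did Lifr, Il11ra1 and Ebi3 with 9 libraries, under the same weights. The numbers of genes called over the whole table, 2 with 9 and 3 with 8 libraries, became 521 and 302 with them, 1 and 1 with the macrophage covariate, 0 and 0 with the exact test, and 0 and 1 with no filter on low values. They were 1 with a pseudocount of 5 and 0 with a filter of 5 TPM (9 libraries), and 5 with a pseudocount of 0.1 (8 libraries). Leaving out 1 library gave 0 to 3 genes with 9 libraries and 0 to 15 with 8 (11 without K1, 15 without C2, 5 without K3 or K4, 1 without C3 and 0 without C4 or C5). The macrophage marker difference ranged from 1.31 to 2.08, and its exact permutation p was 0.0571 without C1 and passed 0.05 without K1 or C2 only. The cause of these changes was not tested.

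Differences that turned in sign with 9 libraries were as follows. Without C1, Il27ra had -0.31, Il12rb2 -0.43, Il12rb1 -0.23, Il23r -0.30, Stat4 -0.16, Jak3 -0.067 and Rora -0.050, and without K2 Il23r had -0.25. Over the 9 libraries left out in turn the highest values were 0.99 for Il27ra, 1.27 for Il12rb2, 1.0 for Il12rb1, 0.23 for Il23r, 0.73 for Stat4, 1.1 for Jak3 and 0.89 for Rora. Library weights gave -0.0014 for Tyk2, -0.36 for Il27ra, -0.415 for Il12rb2, -0.16 for Il12rb1, -0.20 for Il23r, -0.20 for Stat4, -0.19 for Jak3, -0.055 for Il18rap and -0.14 for Rora. The macrophage covariate gave -0.48 for Tyk2, -0.29 for Jak2, -1.44 for Il27ra, -1.95 for Il12rb2, -1.48 for Il12rb1, -0.76 for Il23r, -0.60 for Stat3, -0.87 for Stat4, -0.098 for Ebi3, -0.35 for Jak1, -1.0 for Jak3, -0.24 for Stat5a, -0.63 for Socs3, -0.16 for Socs1, -0.22 for Adam17, -0.35 for Adam10, -0.57 for Il18rap and -0.69 for Rora. Median-of-ratios scaling gave -0.23 for Il23r and -0.060 for Stat4, quantile normalization -0.31 for Il23r and -0.0016 for Jak2, and a pseudocount of 5 gave -0.0006 for Il23r.

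With 8 libraries, library weights gave -0.012 for Tyk2, -0.0059 for Jak1 and -0.061 for Il18rap. The macrophage covariate gave 0.066 for Stat4, -0.16 for Ebi3, 0.30 for Jak3 and 0.34 for Rora. Leaving out C2 gave -0.065 for Tyk2, -0.032 for Jak2, -0.069 for Jak1, -0.031 for Adam10 and -0.10 for Il18rap. Without C3 Jak3 had 0.0068 and Rora 0.047, and without K3 0.068 and 0.045. Without K1 Il18rap had -0.0395 and Il1r1 -0.044. Without K2 Tyk2 had -0.0069, Il18rap -0.062 and Il1r1 -0.22. The opposite ends of these ranges were 0.15 for Tyk2, 0.22 for Jak2, 0.35 for Jak1, 0.27 for Adam10, 0.22 for Il18rap, 0.46 for Il1r1 and -0.13 for Rora.

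Same-numbered libraries did not deviate together (r of -0.137 to -0.017 with 9 libraries and -0.223 to 0.001 with 8), so the numbers were not taken to pair them. With the replicate block 0 genes were called with 9 and 0 with 8 libraries, and Il18rap and Il1r1 had -0.064 and -0.17 with 8. Libraries whose number stood alone, C5 with 9 and K1 and C5 with 8, carry no weight in that fit. Depth, which TPM does not keep, limits what can be said of Il23r and other low genes.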
